A study of Homo sapiens with 4 samples.

Results

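The genes described here fold, check and dispose of proteins in the endoplasmic reticulum (ER). They are 48 genes chosen by name, of 42067 gene symbols in the deposited tables, and cover chaperones, disulfide enzymes, stress sensors, degradation factors and subunits of the protein channel. RNA was sequenced from Huh7, an established human hepatocellular carcinoma cell line. The 2 H2O2 libraries came from cells given medium with 300 µM hydrogen peroxide for 4 days, and the 2 mock libraries from mock-treated cells kept for the same 4 days. Medium was replaced daily in both groups. By their titles, the libraries of either group are called H and Q. What these letters stand for is not stated, and where a group's pair of values is printed, that of H precedes that of Q. Nothing in the labels says that the libraries came from separate cultures, so p-values measure only the spread between these libraries.

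Secreted and membrane proteins enter the ER through the Sec61 channel, are folded there by chaperones of the Hsp70 and Hsp90 classes and by lectins, and receive disulfide bonds from protein disulfide isomerases. Hepatocytes export much of the plasma protein and depend on this machinery. Unfolded proteins activate the sensors IRE1 (gene ERN1), PERK (EIF2AK3) and ATF6, which raise chaperone and degradation genes in part through ER stress response elements in their promoters. The reoxidation of disulfide isomerases by ERO1 enzymes itself produces hydrogen peroxide.

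The promoter element is shown here because some of these genes hold it. The element ERSE was searched as CCAAT and CCACG with 9 bases of any kind between them, and ERSE-II as ATTGG and CCACG with 1 base of any kind between them, on both strands, from 250 bases before to 50 bases after each start site in RefSeq promoters of GRCh38.p14. Promoters were present for 45 of the 48 genes, 2 of them under a newer symbol, and PDIA3, DERL1 and DERL3 had none in the table. Of the 45 genes, 11 (24.4%) held an exact match to either element, against 0.161% of all 27305 gene symbols with a promoter. Inexact elements and elements outside this window were not searched for. By promoter, ERSE stood in 0.0769% and ERSE-II in 0.0541% of all 35116. The elements were already known from genes of this kind, so these shares are not a test. The 13 sites follow, read 5′ to 3′ on the strand of the element, with the fixed bases in capitals. HSP90B1 and HYOU1 had a pair of sites each, and the letters in lower case between the fixed bases differ from gene to gene.
HSPA5: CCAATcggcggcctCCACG
HSP90B1, first site: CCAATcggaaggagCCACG
HSP90B1, other site: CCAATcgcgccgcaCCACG
CALR: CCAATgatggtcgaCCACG
CANX: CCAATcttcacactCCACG
CRELD2: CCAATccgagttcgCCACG
PDIA6: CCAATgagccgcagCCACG
ERO1LB: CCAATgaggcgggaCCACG
XBP1: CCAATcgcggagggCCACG
HYOU1, both sites: ATTGGaCCACG
SDF2L1: ATTGGtCCACG
HERPUD1: ATTGGgCCACG

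Whole promoters are printed for 3 genes that hold an element and whose levels are described in detail below. They are those of HSPA5 (chr9:125241294-125241593, minus strand), HERPUD1 (chr16:56931892-56932191, plus strand) and XBP1 (chr22:28800520-28800819, minus strand), with the fixed bases of the elements in capitals.
HSPA5: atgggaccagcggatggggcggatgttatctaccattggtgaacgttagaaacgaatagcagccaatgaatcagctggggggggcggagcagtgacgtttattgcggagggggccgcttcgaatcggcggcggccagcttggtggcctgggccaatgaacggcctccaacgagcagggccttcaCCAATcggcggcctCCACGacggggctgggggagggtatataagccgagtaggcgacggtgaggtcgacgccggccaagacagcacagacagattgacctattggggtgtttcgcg
HERPUD1: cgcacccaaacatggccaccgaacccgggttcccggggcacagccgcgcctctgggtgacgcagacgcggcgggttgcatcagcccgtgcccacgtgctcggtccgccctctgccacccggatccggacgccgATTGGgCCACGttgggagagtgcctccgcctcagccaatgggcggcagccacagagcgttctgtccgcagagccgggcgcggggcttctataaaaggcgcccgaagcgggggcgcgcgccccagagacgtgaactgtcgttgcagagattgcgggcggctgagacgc
XBP1: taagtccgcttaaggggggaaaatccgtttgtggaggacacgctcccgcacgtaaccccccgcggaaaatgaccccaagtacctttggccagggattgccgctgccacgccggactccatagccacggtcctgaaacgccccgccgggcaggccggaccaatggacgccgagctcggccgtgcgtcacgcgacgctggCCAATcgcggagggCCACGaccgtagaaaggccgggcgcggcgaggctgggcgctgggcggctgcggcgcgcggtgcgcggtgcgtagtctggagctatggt
The marked element began 66 bases before the start site in HSPA5, 117 bases before it in HERPUD1 and 52 bases before it in XBP1. All 3 read along the gene's own strand. Only exact matches are marked, and near matches in these promoters stay in lower case.

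With 1 row per gene, the counts totalled 113082498 and 112972746 in the H2O2 libraries and 103851326 and 108117565 in the mock libraries. Levels are TMM-normalised CPM, where TMM is the trimmed mean of M values, and each fold change is the log2 ratio of H2O2 to mock from the fit. All 48 genes were among the 27514 that passed the filter on low counts. The hepatocyte markers were abundant in sum, at 19062 and 10645 CPM in H2O2 and 16828 and 4973 CPM in mock. They were uneven, with 932918 and 620740 reads of ALB in H2O2 and 579594 and 310021 in mock. TTR had only 1513 and 2448 reads in H2O2 and 1718 and 3139 in mock. Of 13 markers of blood, endothelial and stromal cells, 10 passed the filter and HBB, CDH5 and DCN did not. They summed to 117 and 128 CPM in the H2O2 libraries and 72.4 and 102 CPM in the mock libraries, most of it CD68 (69.9 and 93.6 CPM in H2O2, 48.2 and 77.6 CPM in mock) and PDGFRA (42.9 and 28.6 CPM in H2O2, 19.9 and 17.9 CPM in mock). The general blood cell gene PTPRC stayed at or below 0.272 CPM in every library. The part of these markers in the results was not tested. The mock libraries stood apart from each other in the sum over 15 hypoxia-inducible genes. It was 2970.0 and 2571 CPM in H2O2 and 6133 and 1585 CPM in mock. EGLN3 (1160 and 1762 reads in mock) and CA9 (15 and 33 reads) were higher in mock library Q, the others in mock library H. Several fold changes below are therefore also given without 1 of the mock libraries.

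Chaperone, co-chaperone and degradation genes lay mostly lower in the H2O2 libraries, with median log2 fold changes of −0.16, −0.34 and −0.26. In bulk RNA, fewer cells of a kind and less RNA per cell cannot be told apart. The sensors, the disulfide enzymes and the channel subunits lay on both sides of 0. Over the 48 genes, 34 were lower and 14 higher, with a median log2 fold change of −0.13, against a median of −0.03 over all genes tested, of which 52.8% were lower. Without mock library H, 33 genes were lower and the median was −0.08, against −0.02 over all genes tested. No gene passed the test at 5% after adjustment over all genes (edgeR quasi-likelihood test, 0 of 48 and 0 of 27514, background 0%), and the lowest adjusted p among the 48 was 0.719. All adjusted p-values below come from this edgeR test with Benjamini-Hochberg adjustment over all genes. DESeq2 called 139 genes, 0 of them among the 48, where DERL3 was given no adjusted p. At an unadjusted p under 0.05, edgeR counted 2 of the 48 as lower (4.17%) and 0 as higher, against 3.79% and 3.11% of all genes. The share of lower genes was near that background. One of the pair, DERL3, passed the filter through its mock libraries alone, and without it 1 of 47 genes (2.13%) was lower.

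Both H2O2 values lay below both mock values in 16 of the 48 genes (33.3%), against 21.3% of all genes, and in 15 of 47 (31.9%) without DERL3. Both lay above in 3 (6.25%), against 18.1%. Between the libraries of the same letter, 27 genes were lower in H2O2 for both letters, 10 were higher for both, and 11 differed in direction. The matching shares over all genes were not counted, and the letters are not stated to be pairs. An exact permutation test with 2 libraries per group cannot give a two-sided p below 0.333.

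**Figure D1:**
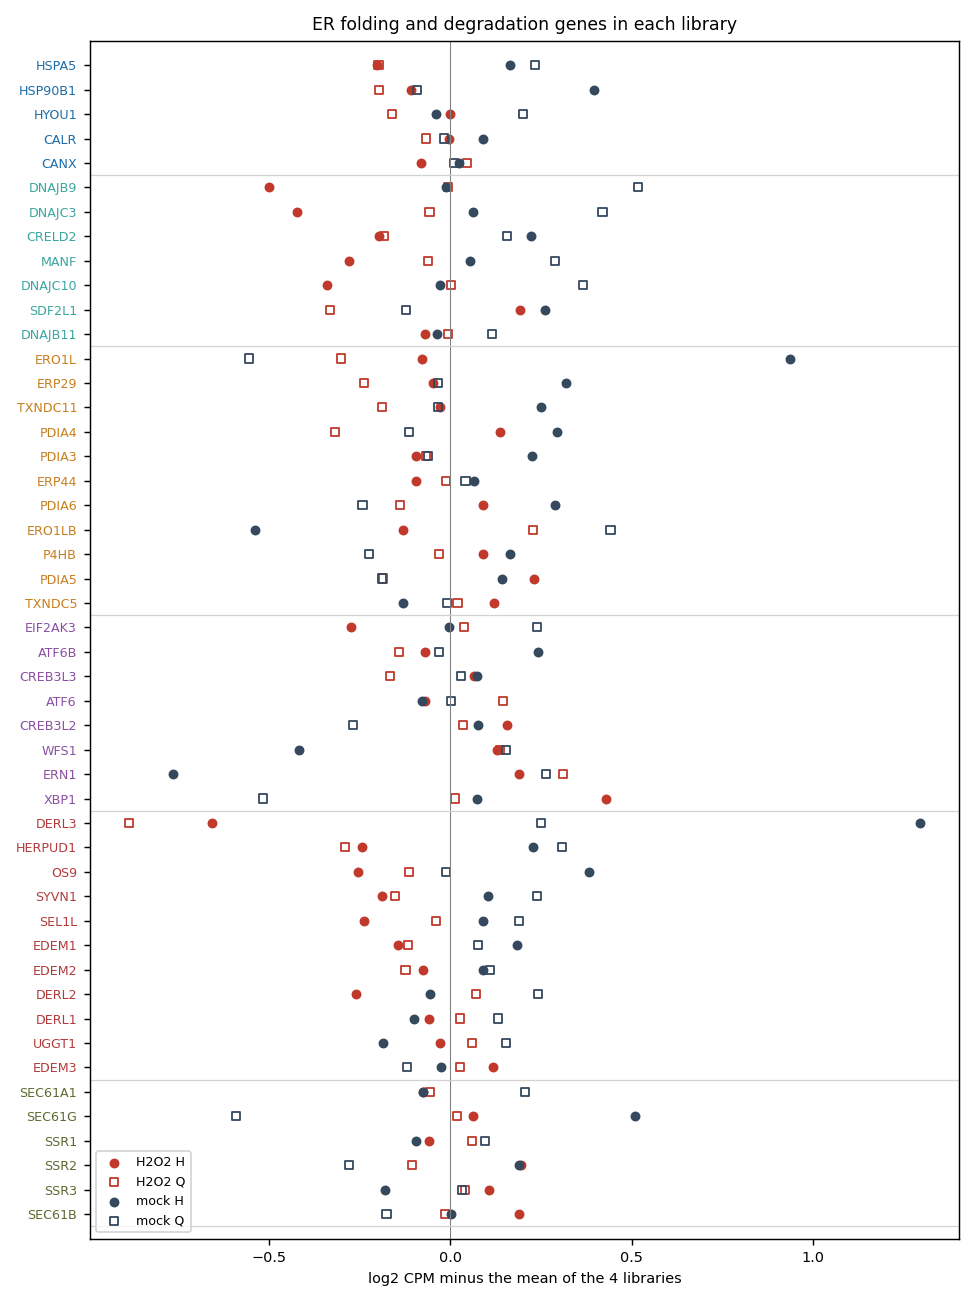
Level of each of the 48 genes in each library, as log2 CPM minus the mean of the 4 libraries (x axis), with genes in rows grouped by role (label colours) and sorted by fold change within a role. Red marks are H2O2 and dark marks are mock libraries, filled circles letter H and open squares letter Q; red marks lie left of dark marks for most degradation genes, and ERO1L, SEC61G and ERN1 show mock libraries H and Q far apart.

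Several chaperone genes were among the most abundant of these RNAs, together with the disulfide isomerase P4HB and the channel subunit SEC61B. Per kilobase of transcript, the lectin chaperone gene CALR stood at 609 and 583 CPM per kilobase in H2O2 and at 651 and 604 in mock. The ER Hsp90 gene HSP90B1 stood at 470.3 and 442 CPM per kilobase in H2O2 and 668 and 476 in mock. The disulfide isomerase P4HB had 398 and 366 CPM per kilobase in H2O2 and 419 and 320.0 in mock. HSPA5, which encodes the ER Hsp70 BiP, had 275 and 276 CPM per kilobase in H2O2 and 355 and 373 in mock. SEC61B had 339 and 294 CPM per kilobase in H2O2 and 298 and 263 in mock, so it stood above HSPA5 in both H2O2 libraries and below it in both mock libraries. In the mock libraries the ranges of P4HB and HSPA5 overlapped, whereas in the H2O2 libraries both values of P4HB were above both of HSPA5. At the low end stood the sensor ERN1, with at most 2.74 CPM per kilobase in H2O2 and 2.65 in mock, and DERL3 below it with at most 0.0909 in H2O2 and 0.352 in mock.

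BiP binds unfolded chains and holds the sensors inactive. HSPA5 measured 1076 and 1079.7 CPM in H2O2, against 1389 and 1457 CPM in mock. The 2 values of each group lay close together and the groups did not overlap. The log2 fold change was −0.40 (SE 0.23, 95% interval −0.99 to 0.19, adjusted p = 0.754). HSP90B1 measured 1344 and 1265 CPM in H2O2 and 1908 and 1360 CPM in mock (−0.33, SE 0.28, adjusted p = 0.807). Its mock libraries differed far more from each other than its H2O2 libraries did, and without mock library H its fold change was −0.05.

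The lectin chaperones calreticulin and calnexin hold sugar-bearing chains during folding. CALR had 1160 and 1109.7 CPM in H2O2 and 1238 and 1149 CPM in mock, and its groups overlapped (−0.07, SE 0.23). CANX had 745 and 813 CPM in H2O2 and 801 and 792 CPM in mock, with H2O2 library Q the highest of the 4 (−0.03, SE 0.22). HYOU1, a large Hsp70 relative that exchanges the nucleotide of BiP, had a fold change of −0.16 (SE 0.22). Its H pair stood at 0.04 and its Q pair at −0.36. All 5 genes of this group had a fold change below 0, with a median of −0.16, and 0 passed the test. CANX stood at 0.03 without H2O2 library H, and the median was −0.05 without mock library H.

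**Figure D2:**
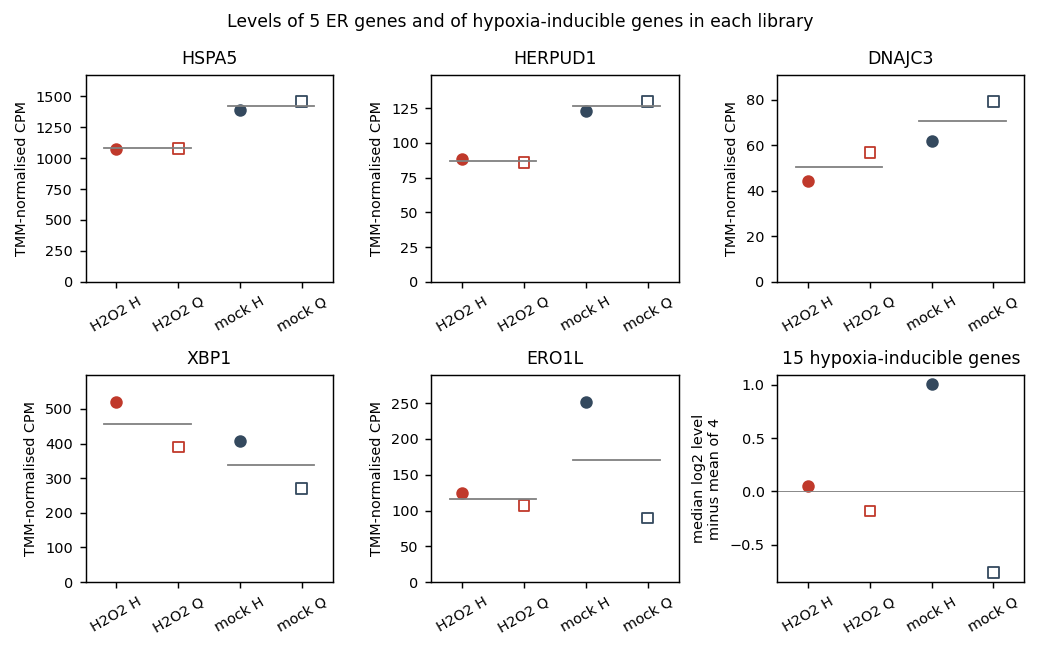
Levels of HSPA5, HERPUD1, DNAJC3, XBP1 and ERO1L in TMM-normalised CPM (y axes from 0) in each library, with grey lines at group means (n = 2), and in the last panel the median log2 level of 15 hypoxia-inducible genes minus the mean of the 4 libraries. Red marks are H2O2 and dark marks mock; HSPA5, HERPUD1 and DNAJC3 are lower in both H2O2 libraries, XBP1 overlaps between groups, and ERO1L follows the hypoxia panel with mock library H highest and mock library Q lowest.

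The co-chaperones and small ER proteins were all lower, 7 of 7, with a median of −0.34 and a range from −0.51 to −0.08, and 0 passed the test. Without mock library H or without H2O2 library Q, 6 of 7 were lower. Without mock library Q, DNAJB9 stood at −0.22, DNAJC3 at −0.30 and DNAJC10 at −0.13. DNAJB9, a J-domain partner of BiP that also restrains IRE1, had 25.2 and 35.4 CPM in H2O2 and 35.3 and 50.9 CPM in mock. H2O2 library Q was just above mock library H, while for either letter the H2O2 library was lower by about the same amount (−0.49 in H and −0.52 in Q). Its fold change was −0.51 (SE 0.28, adjusted p = 0.747). DNAJC3, which encodes p58IPK, an inhibitor of PERK and a BiP partner, had 44.2 and 56.9 CPM in H2O2 and 61.9 and 79.2 CPM in mock, without overlap (−0.48, SE 0.24, adjusted p = 0.725). CRELD2, an ER protein induced by ER stress, had 46.2 and 46.6 CPM in H2O2 and 61.7 and 58.9 CPM in mock, without overlap (−0.38, SE 0.18, adjusted p = 0.725).

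MANF, a secreted ER stress factor that binds BiP, had a fold change of −0.34 (SE 0.20) and also did not overlap between groups. DNAJC10, a J-domain protein that reduces disulfides, had the same value (−0.34, SE 0.24) with overlap. DNAJB11, the most abundant J-domain partner here by CPM per kilobase, had −0.08 (SE 0.20). SDF2L1, a stabilising partner of DNAJB11, had −0.13 (SE 0.27). In both groups library Q stood above library H for the median gene of this role, by 0.22 log2 units in H2O2 and 0.23 in mock.

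Genes of ER-associated degradation and of the check on glycoproteins lay mostly lower. Of 11 genes, 9 were lower and 2 higher, with a median of −0.26 and 0 past the test. Leaving aside DERL3, which passed the filter on low counts through its mock libraries alone, 8 of 10 were lower, and in 6 both H2O2 values were below both mock values (60.0%, against 21.3% of all genes). HERPUD1, an ER membrane protein that takes part in the degradation complex, measured 88.6 and 85.7 CPM in H2O2 and 123 and 130 CPM in mock. Each group was tight and the gap between them was several times the spread within them. The fold change was −0.53 (SE 0.18, 95% interval −0.99 to −0.08, unadjusted p = 0.0293, adjusted p = 0.719). It ranged from −0.56 to −0.49 when any 1 library was left out.

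SYVN1, the ubiquitin ligase HRD1 of this pathway, had 47.7 and 48.9 CPM in H2O2 and 58.3 and 64.1 CPM in mock (−0.34, SE 0.18, adjusted p = 0.731). Its adaptor SEL1L had 88.3 and 101 CPM in H2O2 and 111 and 119 CPM in mock (−0.27, SE 0.19, adjusted p = 0.78). The groups of both genes were separate. EDEM1, a lectin-like factor that sends misfolded glycoproteins to degradation, had 72.4 and 73.8 CPM in H2O2 and 90.8 and 84.4 CPM in mock (−0.26, SE 0.18, adjusted p = 0.776). EDEM2, which trims mannose from such glycoproteins, was lower by a smaller amount (−0.20, SE 0.17), again without overlap. EDEM3, of the same family, was higher in both H2O2 libraries, with 49.4 and 46.3 CPM against 44.7 and 41.9 CPM in mock (0.14, SE 0.18).

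OS9, a lectin that hands glycoproteins to SEL1L, had 211 and 232 CPM in H2O2 and 327 and 249 CPM in mock (−0.38, SE 0.23, adjusted p = 0.759). Mock library H stood far above the other 3, and without it the fold change was −0.16. The derlins form part of the exit channel. DERL1 (−0.03, SE 0.19) and DERL2 (−0.19, SE 0.22) overlapped between groups. DERL3 was near the filter, with 9 and 9 reads in H2O2 and 33 and 20 reads in mock, or 0.0881 and 0.0753 CPM against 0.341 and 0.165 CPM. It passed the filter through its mock libraries, and its fold change of −1.61 (SE 0.61, unadjusted p = 0.0451, adjusted p = 0.719) rests on those reads. UGGT1, which marks incompletely folded glycoproteins for another round of folding, had 0.02 (SE 0.21).

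**Figure D3:**
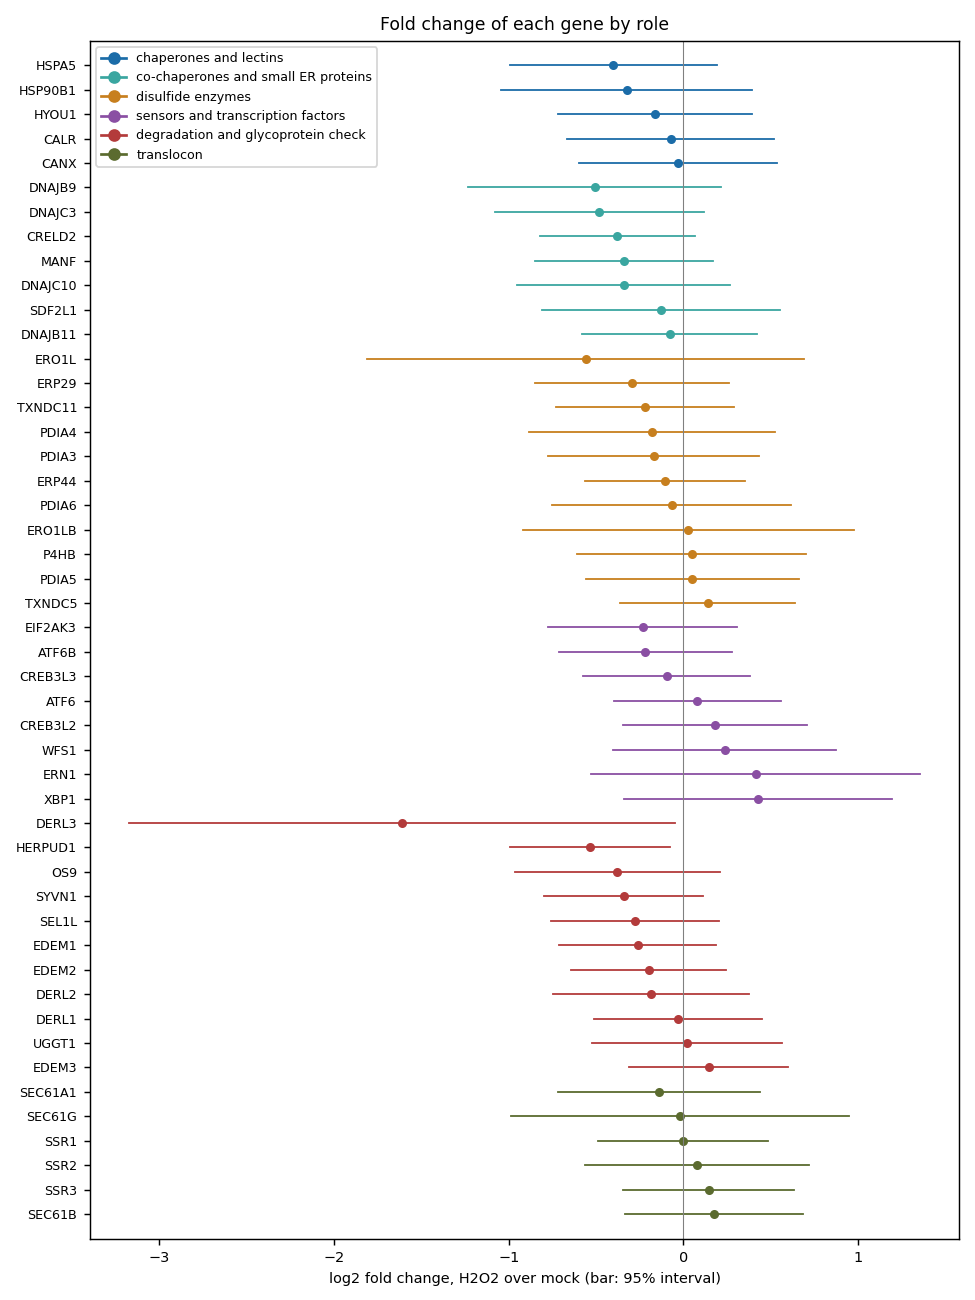
Log2 fold change of H2O2 over mock for each of the 48 genes (points) with its 95% interval (bars), coloured by role. The intervals of HERPUD1 and DERL3 lie below 0 and all others include 0; co-chaperone and degradation genes lie mostly to the left, sensors and channel subunits on both sides.

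The disulfide enzymes were mixed, with 7 of 11 lower, a median of −0.11 and 0 past the test. PDIA3, which works with calnexin and calreticulin, had 747 and 762 CPM in H2O2 and 933 and 766 CPM in mock (−0.17, SE 0.24, adjusted p = 0.872). The groups were separate only by the small step between H2O2 library Q and mock library Q. P4HB had 1035 and 952 CPM in H2O2 and 1091 and 833 CPM in mock, with mock the highest and the lowest of the 4 (0.05, SE 0.26). PDIA4 had 440.3 and 321 CPM in H2O2 and 491 and 370.2 CPM in mock, lower within both letters (−0.16 in H and −0.21 in Q), while libraries H stood above libraries Q (−0.18, SE 0.28). Their relatives ERP29, which is chaperone-like (−0.29, SE 0.22), and ERP44 (−0.11, SE 0.18) were lower in both H2O2 libraries than in both mock libraries. ERP44 retrieves oxidases to the ER. For ERP29 the step was small, from 143.3 CPM in H2O2 library H to 144.8 CPM in mock library Q. The thioredoxin-domain gene TXNDC11 (−0.22, SE 0.20) and the isomerase PDIA6 (−0.07, SE 0.27) were below 0 with overlap. The isomerase PDIA5 (0.05, SE 0.24) overlapped, and the thioredoxin-domain isomerase TXNDC5 (0.14, SE 0.20) was higher in both H2O2 libraries. Without mock library H the median of the 11 was 0.05, with PDIA3 at −0.01, ERP29 at −0.10, TXNDC11 at −0.06, PDIA6 at 0.23 and PDIA5 at 0.23.

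ERO1L and ERO1LB encode the oxidases that recharge the isomerases. ERO1L had 125 and 107 CPM in H2O2, against 252 and 89.6 CPM in mock. The mock values were the highest and the lowest of the 4, with both H2O2 values between them. The fold change was −0.56 (SE 0.49, adjusted p = 0.809), with −1.01 for the H pair and 0.25 for the Q pair, and it was 0.38 without mock library H. ERO1LB showed the opposite order in mock, with 16.1 and 20.7 CPM in H2O2 and 12.1 and 23.9 CPM in mock (0.03, SE 0.37). ERO1L is also induced by hypoxia, and the sum over the 15 hypoxia-inducible genes had the same order of libraries, with mock library H highest and mock library Q lowest. Of these 15 genes, 14 had a fold change below 0, with medians of −0.95 for the H pair and 0.57 for the Q pair. Whether this difference between mock libraries has a part in the value of ERO1L was not tested.

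The sensors and transcription factors were higher in 5 of 8 cases, with a median of 0.13, and 0 passed the test. Without mock library H the median was −0.01. XBP1, the transcription factor that IRE1 activates by splicing its messenger RNA, had the largest positive value of the 48 genes. It measured 520.2 and 390.3 CPM in H2O2 and 407 and 270.0 CPM in mock. H2O2 library Q was below mock library H, so the groups overlapped, while within each letter the H2O2 library was higher (0.35 in H and 0.53 in Q). The fold change was 0.43 (SE 0.30, 95% interval −0.34 to 1.19, adjusted p = 0.781). Its size depended on single libraries, with 0.76 without mock library H, 0.16 without mock library Q, 0.20 without H2O2 library H and 0.64 without H2O2 library Q. The tables hold a row for each of the spliced and unspliced models of XBP1, but the lower row repeated 97.3% of the count of the higher, so they give no measure of splicing.

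ERN1, the sensor that splices XBP1, had 19.9 and 21.6 CPM in H2O2 and 10.2 and 20.9 CPM in mock (0.41, SE 0.37, adjusted p = 0.812). Mock library H alone was low, and without it the fold change was near 0. EIF2AK3, the sensor kinase that reduces protein synthesis, had 44.4 and 55.1 CPM in H2O2 and 53.6 and 63.3 CPM in mock, lower within both letters (−0.23, SE 0.21, adjusted p = 0.815). ATF6, the sensor released from the membrane as a transcription factor, had 51.8 and 60.2 CPM in H2O2 and 51.5 and 54.5 CPM in mock (0.08, SE 0.19, adjusted p = 0.925). Its relative ATF6B was lower in both H2O2 libraries (−0.22, SE 0.20), and stood at −0.07 without mock library H. CREB3L2 (0.18, SE 0.21), a related membrane-bound factor, and the liver factor CREB3L3 (−0.10, SE 0.19) overlapped between groups. WFS1, the wolframin gene of the ER membrane, had 0.24 (SE 0.25) and −0.01 without mock library H.

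The channel and its associated proteins lay on both sides of 0, with 3 of 6 below 0, 0 past the test, a median of 0.04 and a range from −0.14 to 0.17. SEC61A1, the pore subunit, had 524 and 531 CPM in H2O2 and 525 and 637 CPM in mock (−0.14, SE 0.23, adjusted p = 0.888). The median was −0.02 under upper-quartile scaling and 0.16 without mock library H. The small subunit SEC61B had 0.17 (SE 0.20). The other small subunit, SEC61G, had close values in H2O2, 109.9 and 107 CPM, between widely spaced values in mock, 149.5 and 69.8 CPM (−0.02, SE 0.38). This order of the 4 libraries was also that of ERO1L, and the fold change of SEC61G was 0.64 without mock library H and −0.47 without mock library Q. SSR1, a subunit of the translocon-associated protein complex, had 129 and 139.9 CPM in H2O2 and 126 and 144 CPM in mock, with both H2O2 values inside the mock range (0.00, SE 0.19, 95% interval −0.49 to 0.48). SSR2 (0.08, SE 0.25) and SSR3 (0.14, SE 0.19) of the same complex were above 0. SSR2 stood at 0.34 without mock library H and −0.14 without mock library Q.

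Most of the genes with an exact match to a promoter element were lower, as were most of those without one. The latter may still hold variant or more distant elements, which were not searched for. Of the 11 with ERSE or ERSE-II, 9 were lower, with a median of −0.13 and values from −0.53 in HERPUD1 to 0.43 in XBP1. Of the 34 with neither, 22 were lower, with a median of −0.12. HSPA5 and XBP1, whose promoters are printed above with ERSE on the gene's own strand, stood at −0.40 and 0.43. Besides XBP1, only ERO1LB among the 11 was above 0, at 0.03 (SE 0.37).

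Neighbouring steps of the secretory pathway were read from lists outside the 48 genes, and 0 of their genes passed the test in either direction. Further degradation genes were lower in 13 of 16 cases, with a median of −0.06. The values farthest from 0 were those of the ubiquitin-conjugating enzyme UBE2J2 (0.43, SE 0.18), which was higher, and of HERPUD2 (−0.39, SE 0.20). Further disulfide and redox enzymes were higher in 13 of 18 cases (median 0.11), with TXNDC16 at 0.70 (SE 0.28) and SELM at 0.65 (SE 0.37). SELM had 33.5 and 67.4 CPM in H2O2 and 28.9 and 35.4 CPM in mock, so H2O2 library H lay inside the mock range. Signal recognition and signal peptidase genes were higher in 9 of 13 cases (median 0.10), with SRP72 at 0.48 (SE 0.19) and SRP9 at 0.43 (SE 0.31). COPII coat genes, which carry cargo out of the ER, were higher in 8 of 10 cases (median 0.15), with SEC23A at 0.44 (SE 0.30) and SAR1B at 0.32 (SE 0.20).

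Glucosidases and cargo lectins had 5 of 9 genes higher (median 0.03), with the cargo receptor LMAN1 and the UGGT1 relative UGGT2 both at 0.41 (SE 0.23 and 0.19). Oligosaccharyltransferase genes, which attach sugar chains, were split 5 to 5 (median 0.01), with TUSC3 at −0.87 (SE 1.85), far higher in libraries Q than in libraries H of both groups, and STT3B at 0.25 (SE 0.20). Prolyl isomerases and exchange factors were also split 5 to 5 (median 0.00), with FKBP7 at 0.46 (SE 0.36) and PPIC at −0.43 (SE 0.33). Further channel genes had 3 of 5 higher (median 0.08), with TRAM1 at −0.38 (SE 0.26) and SEC62 at 0.14 (SE 0.18).

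Genes downstream of PERK were higher in 9 of 11 cases, with a median of 0.17. By letter, 2 of the 11 were lower for the H pair and 4 for the Q pair, with medians of 0.25 and 0.14. The stress factor ATF3 had 85.7 and 86.6 CPM in H2O2 and 15.6 and 42.5 CPM in mock (1.57, SE 0.48, adjusted p = 0.719), and SESN2, a stress-induced inhibitor of growth signalling, had 66.7 and 75.5 CPM in H2O2 and 101 and 101 CPM in mock (−0.51, SE 0.18, adjusted p = 0.719). ATF4, the transcription factor of this branch, stood at 0.21 (SE 0.33), and DDIT3, which encodes the death-associated factor CHOP, at 0.06 (SE 0.23). The cytosolic heat shock chaperones, which answer to a different transcription factor, were higher in 13 of 13 cases, with a median of 0.52, and in 11 of 13 without mock library H. CHORDC1, an Hsp90 partner, led them at 0.94 (SE 0.29), followed by HSPA1A at 0.93 (SE 0.52). HSPA1A had 400.5 and 187 CPM in H2O2 and 96.6 and 212 CPM in mock, with 2.05 for the H pair and −0.18 for the Q pair, and its count is uncertain because HSPA1B is a near-identical copy. Their median was 1.02 for the H pair and 0.18 for the Q pair, while the 48 ER genes had medians of −0.16 and −0.11. The difference between the 2 sets was not tested.

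**Figure D4:**
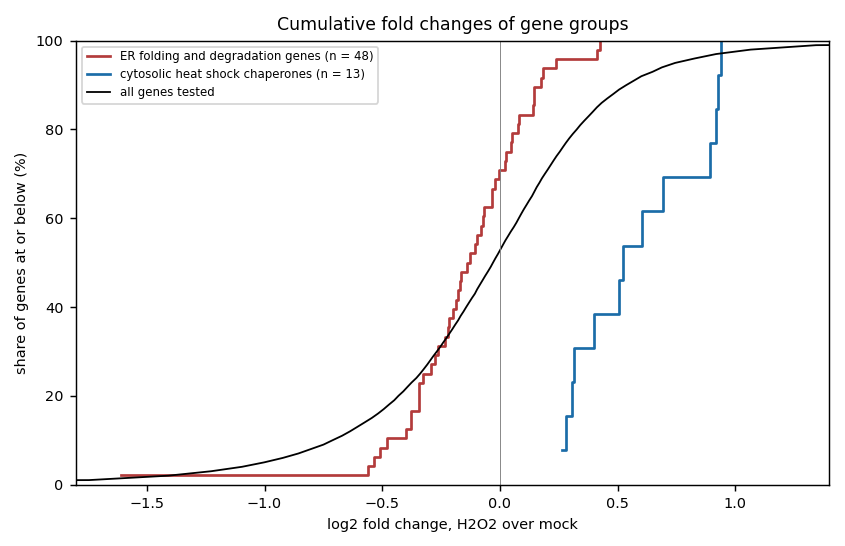
Cumulative share of genes (y axis, percent) at or below each log2 fold change of H2O2 over mock (x axis) for the 48 ER genes (red), 13 cytosolic heat shock chaperones (blue) and all 27514 genes tested (black). The ER curve crosses 0 at 70.8% against 52.8% of all genes, and the blue curve lies wholly above 0, though 2 of its 13 genes fall below 0 without mock library H.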

How the data were processed

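The files gave 58146 transcript rows per library. Per the file headers, the authors deposited a read count and an FPKM value per row. Libraries were made from total RNA with a TruSeq RNA kit, per the labels' protocols. TopHat 1.3.3, Bowtie 0.12.2, Cuffdiff and CASAVA are named in the submitters' processing notes, beside GRCh37, hg19 and mm8 as builds whose roles are not stated. How reads were counted, and whether by strand, is not given in the sources used here, so antisense overlaps cannot be told apart. Mapped mates numbered 78126878 to 88409567 per library in the deposited alignment summaries, fewer than the counts summed over 1 row per gene, so some reads were counted more than once and the counts overstate precision. Of 19 ER genes with several rows, 14 repeated at least 90% of the highest count in the lowest.

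For each gene symbol the row of highest total was taken. Counts were filtered by filterByExpr (minimum count 10), scaled by TMM and tested with edgeR 4.0.16 (glmQLFit, glmQLFTest), with treatment as the sole term, 2 residual degrees of freedom and Benjamini-Hochberg adjustment over 27514 genes. The routine was tested on simulated data with larger changes than these genes had and less spread than these libraries. That run does not measure its power for changes as small as these. The standard error (SE) is the absolute fold change over the root of F. Alternatives used summed rows, other scalings and filters, RefSeq mRNA rows, DESeq2 1.42.0, limma 3.58.1 on log2(FPKM + 1), each library left out, and letter as a block. Transcript lengths came from GENCODE v29, matched by accession for all 48 genes.

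The 48 genes and the other lists were chosen with earlier results of these data known. Values per library are given for the defining genes of each role and for the 10 of largest absolute fold change. Other lists name the 2 genes of largest absolute fold change.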

Additional observations from a re-analysis of the deposited data

How the results depend on the processing

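None of the 48 genes passed 5% under any of the 13 alternatives, the lowest adjusted p being 0.133, with the letter as a block. Over all genes, 0 passed in the main test, 9 without a filter on low counts, 139 with DESeq2, 45 with the letter as a replicate block, and 0 to 13 with 1 library left out, the 13 being without mock library Q. Letters are shared names, not stated pairs. Deviations of the same letter correlated across genes (r = 0.47 over 27514 genes and 0.63 over the 48), with 2 pairs only. The main test counts differences between letters as spread. With the letter as a block, 10 of the 48 genes had an unadjusted edgeR p below 0.05, against 5223 of all 27514. Of the 10, 9 were lower. The median of the 48 genes, −0.13, was −0.10 with DESeq2's size factors in edgeR and with DESeq2, −0.19 with upper-quartile scaling, −0.18 on RefSeq mRNA rows, −0.11 with limma on FPKM, and −0.17 to −0.075 with 1 library left out. The median over all genes moved as well, from −0.03 to 0.001 with DESeq2's size factors in edgeR and with DESeq2. It was −0.083 with upper-quartile scaling, −0.018 on RefSeq mRNA rows and 0.026 with limma on FPKM. With 1 library left out it ran from −0.062 to 0.0054. Without H2O2 library Q the median was −0.11 for the 48 genes and −0.062 for all genes. Between 29 and 38 of the 48 genes were lower, and between 47.0% and 57.6% of all genes tested. In all, 30 of the 48 genes kept their direction in every alternative run, 24 lower and 6 higher. DERL3 was removed by the filter on FPKM and had no adjusted p with DESeq2, so it could not pass in either. Of 298 values of named genes, 19 changed sign. SSR1 was 0.011 with summed rows, 0.028 with DESeq2's size factors, 0.0056 without a filter, 0.028 with DESeq2 and 0.11 with limma. P4HB was −0.0063 with upper-quartile scaling, and CANX and SEC61A1 were 0.035 and 0.017 with limma. With 1 library left out, SSR1 ranged from −0.086 to 0.090, P4HB from −0.14 to 0.26, CANX from −0.078 to 0.030, SEC61A1 from −0.26 to 0.0038, PDIA4 from −0.42 to 0.050, ERO1L from −1.12 to 0.38, ERN1 from −0.0016 to 1.01 and ATF6 from −0.013 to 0.18. The cause of these changes was not tested. Role medians moved beyond the library spread in 20 of 78 values, and without mock library H that of disulfide enzymes was 0.05. A fit on 3 libraries takes the lone library to vary like the others.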
